A study of Mus musculus with 4 samples.

Results

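Probes for the mouse miRNA families miR-297, miR-466, miR-467 and miR-669 were followed across 4 miRNA arrays of mast cells. A member was any matched probe whose miRNA name was one of these 4 family names, with or without a letter or an arm suffix, named for mouse, human or rat, and neither a star (passenger-strand) nor a mismatch probe. The rule uses names only, and the families were picked with earlier results of these arrays known. This gave 9 probes for 8 miRNA names out of 785 matched miRNA probes: mouse-named miR-297, miR-297b, miR-466, miR-467a, miR-467b, miR-669a, miR-669b and miR-669c, and 1 rat-named miR-297 probe. All 9 were listed by the authors on all 4 arrays, so none was lost to a filter on low values.

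The arrays held 1 sample each of 4 groups. Primary mouse mast cells derived from bone marrow (BMMC), grown with IL3 and stem cell factor (SCF, which binds and activates the receptor KIT), were profiled after SCF starvation or with 100 ng/cc SCF for 24 h. Whether IL3 was kept during those 24 h is not stated in the labels. P815, a mouse mast cell line that the labels give as D814V KIT mutant and that grew without cytokines, was profiled without or with 10 nM imatinib, a KIT inhibitor, for 24 h. P815 is a single line, no pooling or animal number is stated for the BMMC, and KIT activity was not read out on the arrays. The study asked which miRNAs are regulated by KIT. With 1 array a group no difference has a replicate error, no test was made, and "higher" and "lower" describe a pair of arrays.

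A miRNA is a short RNA that guides repression of mRNAs, mainly through pairing of its seed (bases 2 to 8). These families are known from a large rodent-specific cluster of repeated hairpins inside Sfmbt2, a Polycomb-group gene that is imprinted, and the cluster is best known from the placenta and embryonic stem cells. In the GRCm38.p6 gene table, 71 of the 81 genes that carry these 4 family names lie within the span of Sfmbt2, and 72 genes lie there in all. Of the 71, 5 are named miR-297, 23 miR-466, 14 miR-467 and 29 miR-669. Names with 1 gene there were miR-297b, miR-466, miR-467b, miR-669b and miR-669c. By contrast 10 genes are named miR-467a and 12 miR-669a, all within the span, so a signal for either cannot be assigned to 1 hairpin. The unlettered miR-297 name has 3 genes within the span and 1 on chromosome 7. Along the cluster miR-669b is gene 5 of the 71 and miR-467b gene 25, while miR-466, miR-669c and miR-297b lie close together as genes 55, 57 and 59.

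The sequences below show the kind of repeat found under these family names. None is the sequence of a member, and all 8 come from genes outside the span of Sfmbt2. Of the 8 member names, 0 were matched to a mature sequence of the RefSeq table used here (GRCm38.p6), and 8 mature sequences of the same families under other letters are shown in their place for the kind of repeat they carry. They are printed 5′ to 3′ with the seed in capitals, first those rich in UG and then those rich in CA and AC.
miR-466k (chr3:85467396-85467418, + strand): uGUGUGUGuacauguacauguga
miR-466j (chr10:60960802-60960824, + strand): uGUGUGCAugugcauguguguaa
miR-669n (chr3:115979905-115979924, + strand): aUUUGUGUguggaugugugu
miR-467h (chr9:115381898-115381919, + strand): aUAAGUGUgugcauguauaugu
miR-466i-3p (chr13:17747552-17747573, + strand): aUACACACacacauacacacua
miR-467f (chr11:69635419-69635439, - strand): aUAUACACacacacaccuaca
miR-466q (chr3:28419988-28420007, + strand): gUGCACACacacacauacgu
miR-467g (chr5:34732872-34732892, - strand): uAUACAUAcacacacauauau

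The first 4 hold 5 to 8 UG dinucleotides each and the last 4 hold 10 to 15 CA or AC dinucleotides. Of the 1679 mature names in the table, 2.56% have at least 5 UG and 13.1% at least 5 CA or AC. The CA or AC count adds both dinucleotides of a repeat while the UG count leaves out GU, so the counts are not on one scale. No 2 of these 8 share a seed, and miR-467h shares its seed only with miR-668-5p in the table. The seeds of the members themselves were not available to compare. The miR-297 gene on chromosome 7, Mir297-1, was given as a hairpin without a mature sequence, and it is built of the same repeat, with 17 UG dinucleotides in 76 bases.
Mir297-1 hairpin (chr7:10958437-10958512, - strand): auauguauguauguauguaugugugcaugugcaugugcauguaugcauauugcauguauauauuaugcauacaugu
Such repeats make cross-hybridization among members possible, and the probe sequences and the arm each probe targets were not given in the sources used here. It was not tested how far each probe separates its own name from the others.

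On the arrays, 678 matched probes were named for mouse, human or rat and 107 for viruses or worms. Median matched intensity was 504.0, 356.8, 251.8 and 232.2 in BMMC without and with SCF and in P815 without and with imatinib, so the median raw intensity was lower on both P815 arrays. A probe is called listed where its intensity reached 1.5 times the array's median mismatch probe, the limit below which the authors left it blank. Log2 values below are background-corrected and quantile normalized over the 4 arrays. Of 7 myeloid and mast cell miRNAs chosen as markers, 7 were listed in BMMC without SCF, 6 with SCF and 4 on each P815 array, where miR-142-3p, miR-146a and miR-223 were not listed. Of 4 muscle miRNAs, miR-206 was listed on all 4 arrays and miR-1 on 1, and the liver miRNA miR-122a was listed on all 4. Of 2 erythroid miRNAs miR-144 was listed on 1 array of each cell type, of 2 neural ones miR-124a on 1 array, and the endothelial miR-126 on none.

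**Figure D1:**
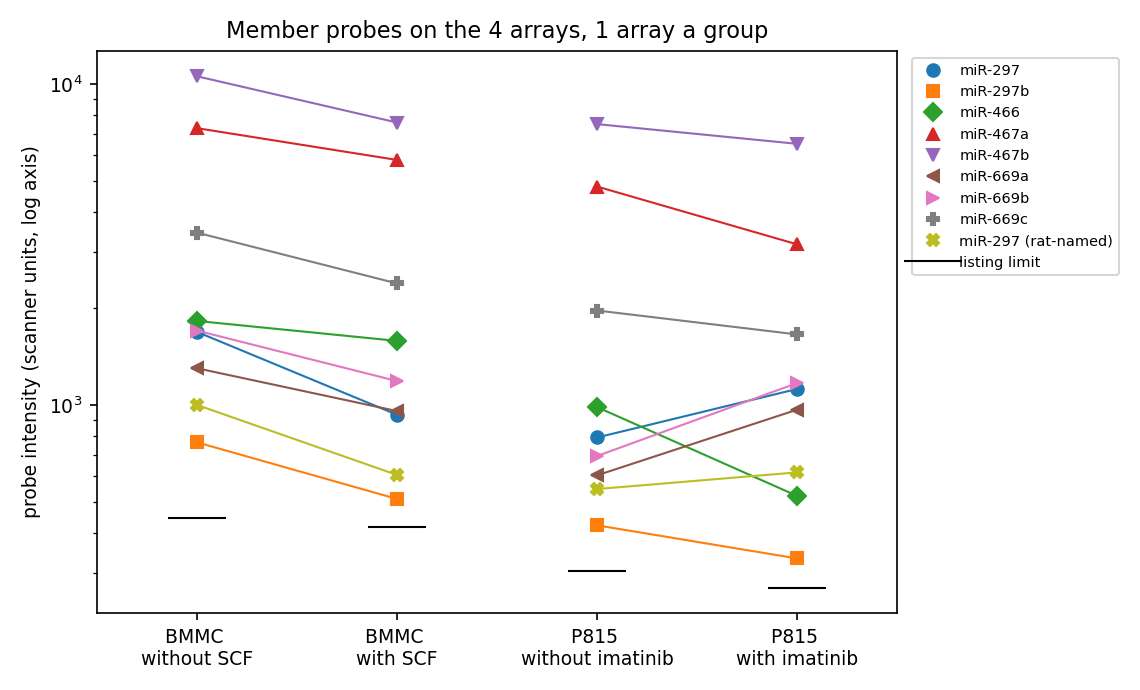
Intensity of the 9 member probes on each array, in scanner units on a log axis, 1 point per array; lines join the 2 arrays of a cell type and black bars mark the listing limit. All 9 read lower with SCF than without in BMMC, whereas in P815 the probes for miR-297, miR-669a and miR-669b and the rat-named miR-297 probe read higher with imatinib and the other 5 lower.

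The members did not move as a block with imatinib in P815. miR-466, miR-467a and miR-669c were at least 2-fold lower, miR-297b, miR-467b and the rat-named miR-297 probe were lower by less, and miR-297, miR-669a and miR-669b differed little from their untreated level. Thus 3 of 9 probes were at least 2-fold lower and 0 at least 2-fold higher, where 5.76% of the 295 listed mouse, human or rat probes were 2-fold lower and 11.2% 2-fold higher. The members' median log2 difference was -0.43, against -0.05 over all 295. Their SD was 0.65, close to the 0.64 of 41 listed virus and worm probes, of which 0 were 2-fold lower and 5 were 2-fold higher.

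The miR-466 probe read 984.75 without imatinib and 521.0 with it, after 1827.5 and 1584.25 in BMMC without and with SCF. P815 with imatinib was thus the lowest of its 4 arrays. Its log2 difference with imatinib was -1.73, or 3.33-fold lower, the lowest of the 9 members and the 5th lowest of the 295 probes. Relative to the median of all listed probes the difference was -1.68.

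The miR-467a probe, whose name is shared by 10 hairpins, read 4791.75 without and 3165.75 with imatinib, and 7284.25 and 5799.5 in BMMC without and with SCF. It was 2.24-fold lower with imatinib on the normalized scale (log2 difference -1.17). The miR-467b probe read 7499.5 without and 6511.25 with imatinib, a log2 difference of -0.41. The miR-467a difference was therefore lower than that of miR-467b by 0.75 (a gap of -0.75), and this gap ran from -0.78 to -0.31 over 8 alternative ways of processing. These near-identical names may cross-hybridize, so the size of the gap is uncertain.

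The miR-669 names were the most divided. The miR-669c probe read 1970.0 without and 1659.25 with imatinib, and was 2.11-fold lower after normalization (log2 difference -1.08). The miR-669a probe went from 604.25 to 967.5 and the miR-669b probe from 694.0 to 1171.0, with log2 differences of 0.10 and 0.21. In raw intensity these 2 probes were 1.60-fold and 1.69-fold higher with imatinib, while miR-669c was at 0.842 of its untreated reading. The gap between miR-669c and miR-669b was -1.29 and lay between -1.37 and -1.10 over the 8 alternatives. miR-669a and miR-669b stayed within 0.12 of each other in all of them. A gap between 2 probes does not depend on where an array is centred, so this division was not set by centring. Alternatives that differ only in centring therefore give the same gap. The division rests on 1 array a side.

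The miR-297 names differed too. The mouse-named miR-297 probe read 792.5 without and 1122.5 with imatinib, the rat-named one 547.5 and 617.0, and the miR-297b probe 422.0 and 332.75. The first 2 read higher with imatinib and the third lower. Normalized log2 differences were -0.13, -0.43 and -0.86 in the same order. The mismatch probes of the mouse-named miR-297 and of miR-297b were lower with imatinib too, at -0.41 and -0.70. The matched miR-297b reading exceeded its mismatch reading by 89.5 without and 84.75 with imatinib. For the mouse-named miR-297 probe these remainders were 333.5 and 593.0. The 2 probes of the same name were apart by 0.30, which is one measure of how far the choice of probe alone moves a value here. The miR-297b probe was close to background, at 2.08 and 1.85 times the median mismatch probe on these 2 arrays.

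**Figure D2:**
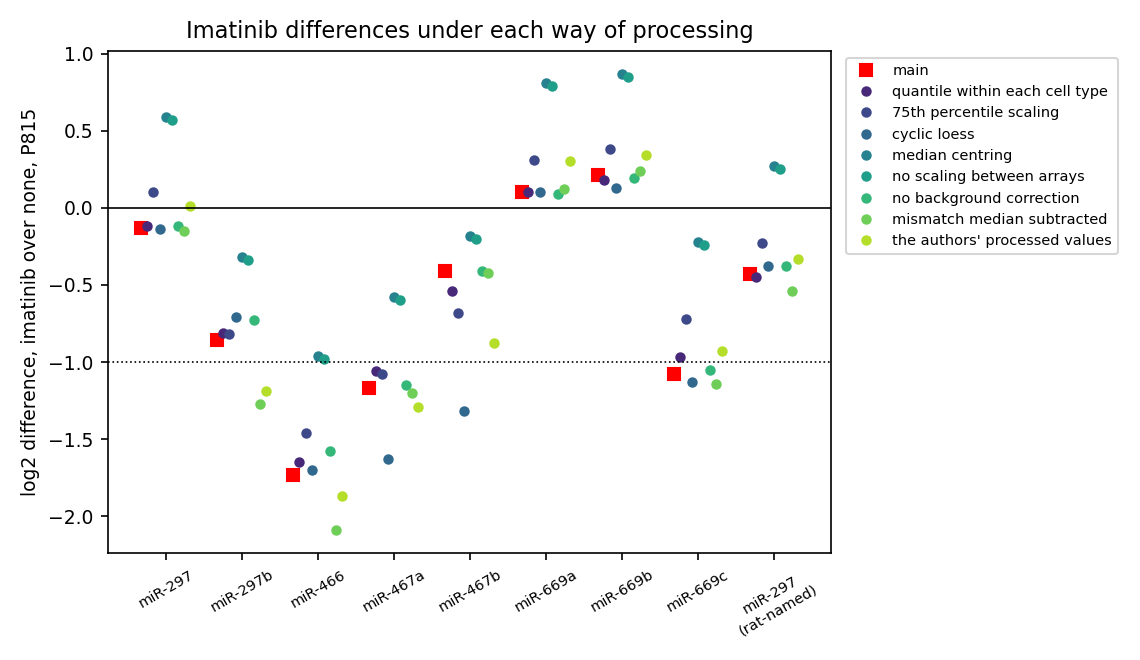
Log2 difference of each member probe, P815 with over P815 without imatinib, under the reported processing (red squares, named main) and 8 alternatives (circles). miR-466 was the lowest and miR-669b the highest member in each of them, and miR-669a and miR-669b were above 0 throughout. The level of the whole family moved with the centring, and settings that differ only in centring keep the same order of members.

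The direction of these 3 lower members held in all 11 alternatives that include them: miR-466 ran from -2.09 to -0.96, miR-467a from -1.63 to -0.58 and miR-669c from -1.14 to -0.22. Of these alternatives, those that vary only detection or the set of probes leave a single probe's value unchanged, so they could not turn a direction. The side of the 2-fold line on which these members lay did not hold. With median centring the count of 2-fold lower members went from 3 to 0, and without scaling also to 0, as the median of all listed probes moved from -0.05 to 0.40 and 0.38. The sign of the rat-named miR-297 probe turned positive under those 2 settings, and that of the mouse-named one under them, with 75th percentile scaling, with its own mismatch probe subtracted and in the authors' processed values. The members' median stayed below that of all listed probes in all 11 alternatives that kept at least 8 members, with a distance of -0.69 to -0.21. Alternatives that differ only in centring share the same distance, so they are not separate checks of it.

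With SCF in BMMC the members differed little. None of the 9 was 2-fold apart in either direction: 0 were 2-fold lower, as were 0% of the 421 listed probes, and 0 were 2-fold higher, as were 2.14%. The members' median log2 difference was -0.03, against -0.05 over all listed probes, and their SD was 0.24, below the 0.31 of 60 virus and worm probes. In raw intensity all 9 were lower with SCF, and so was the median of all listed probes, by -0.55 on the log2 scale.

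miR-297 was the lowest member and miR-466 the highest. The mouse-named miR-297 probe read 1688.75 without and 932.25 with SCF, a normalized log2 difference of -0.44, and the rat-named probe read 1000.25 and 605.5, a difference of -0.24. Both miR-297 probes thus lay on the lower side. The miR-466 probe differed by 0.40, miR-467a by 0.21 and miR-467b by 0.12, the last reading 10567.5 without and 7584.0 with SCF. The 3 miR-669 probes were alike, each at -0.03, with readings of 1301.75 and 957.5 for miR-669a, 1705.0 and 1187.25 for miR-669b and 3442.5 and 2391.75 for miR-669c. The division among miR-669 names seen with imatinib was therefore not seen with SCF: the gap between miR-669c and miR-669b was 0.00, and from -0.02 to 0.06 over the alternatives.

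The mismatch probes of miR-297 and miR-297b, which carry 2 altered bases and exist for no other member, moved against their matched probes with SCF. The miR-297 mismatch probe read 737.5 without and 804.5 with SCF, while the matched probe read lower with SCF. The matched reading was 2.29 times the mismatch reading without SCF and 1.16 times with SCF. For miR-297b, where the mismatch probe read 450.0 and then 499.5, the ratio went from 1.70 to 1.02. The direction of this change was usual: of the 211 probes with a mismatch probe that were listed on both BMMC arrays, 83.4% had a lower ratio with SCF. Their median ratio fell less, from 3.07 without to 2.63 with SCF. How many fell as far as miR-297 and miR-297b was not counted. At a ratio of 1.02, the miR-297b reading in BMMC with SCF could not be told from its mismatch reading (509.75 against 499.5). In P815 the miR-297 ratio was 1.73 without and 2.12 with imatinib, and the miR-297b ratio 1.27 and 1.34. Over 164 probes listed on both P815 arrays the median ratio was 1.92 and 2.68.

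**Figure D3:**
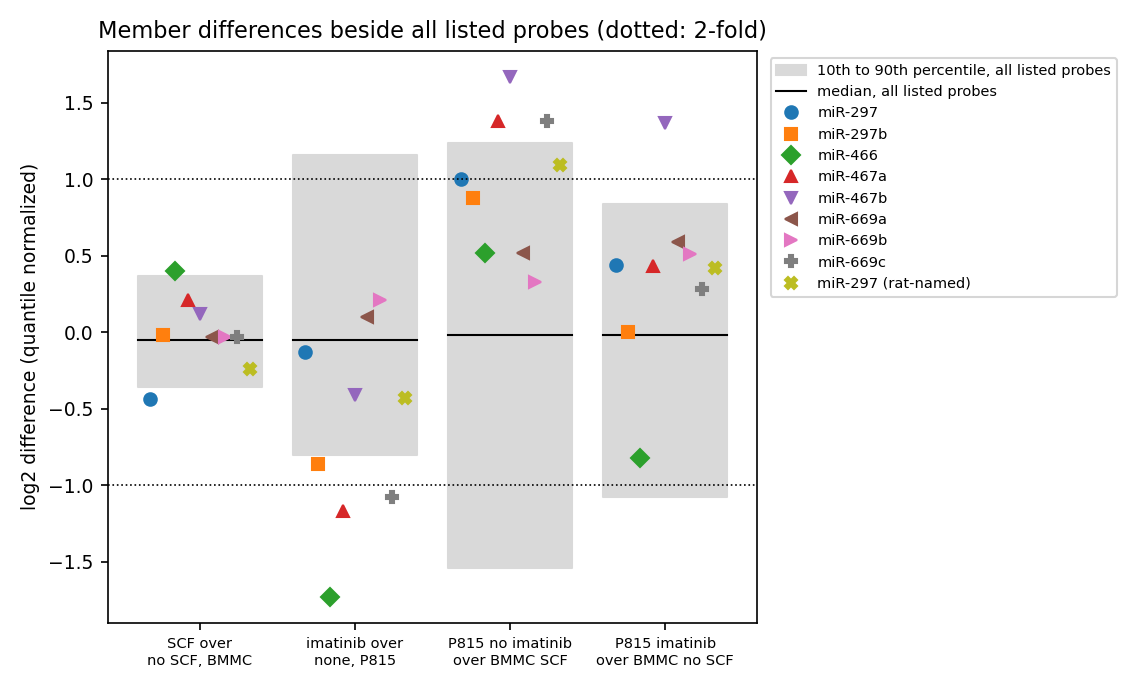
Normalized log2 difference of each member probe (symbols) in the 4 comparisons, over the 10th to 90th percentile (grey) and median (line) of all listed mouse, human or rat probes; dotted lines mark 2-fold. With SCF 7 of the 9 members lie inside the grey band, with imatinib 4 lie below it, and in P815 without imatinib over BMMC with SCF all 9 lie above the line.

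Between the cell types with KIT stimulated or mutant, the family was higher in P815 on the normalized scale, a direction that turned without scaling between arrays. In P815 without imatinib against BMMC with SCF all 9 normalized differences were above 0, with a median of 1.0 against -0.02 over 313 listed probes. Of the 9, 5 were 2-fold higher or more, against 16.6% of the 313 probes, and 0 were 2-fold lower, against 25.6%. The 40 listed virus and worm probes had a median of 0.52 and an SD of 0.90, so they too lay above the median of all listed probes. The highest was miR-467b (3.18-fold), followed by miR-467a (2.61-fold), miR-669c (2.61-fold), the rat-named miR-297 probe (2.13-fold) and miR-297, which lay on the 2-fold line itself (2.0-fold). miR-297b was 1.84-fold higher, miR-466 and miR-669a 1.44-fold, and miR-669b 1.26-fold.

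These are relative values. No member read brighter in untreated P815 than in SCF-treated BMMC: the miR-467b readings were 7499.5 and 7584.0, nearly equal, and the others ran from 0.585 to 0.904 of the BMMC reading. The median listed probe was meanwhile lower in P815 by -0.98 in raw log2 intensity and the members by only -0.28. Without scaling between arrays all 9 differences were below 0, with median centring 3 were, and 0 were 2-fold higher under either. The members' median exceeded that of all listed probes by 0.86 to 1.32 in all 9 alternatives with at least 8 members, of which those that differ only in centring share the same distance. In a bulk RNA sample a lower reading from fewer expressing cells and from less RNA per cell cannot be told apart.

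The remaining pair, P815 with imatinib against BMMC without SCF, shares its arrays with the comparisons above, so its values are not independent of them. Of the 9 members, 1 was at least 2-fold higher (7.33% of 423 listed probes) and 0 were 2-fold lower (11.3%). miR-467b was 2.59-fold higher (log2 difference 1.37). It lay at 0.56 with 75th percentile scaling, at 0.53 with median centring and at -0.70 without scaling, and in raw intensity all 9 members read lower than in BMMC without SCF. miR-466 lay at -0.82, the lowest of the 9. miR-297b was level at 0.00, and the other 6 lay between 0.28 and 0.59. The median was 0.43, against -0.02 over all listed probes and 0.23 over 60 virus and worm probes (SD 0.56), and stayed above that of all probes by 0.25 to 0.57 in the 9 alternatives.

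By the intended KIT state, 3 of the 9 members were higher in both systems, with SCF in BMMC and without imatinib in P815. Whether imatinib lowered KIT activity in these D814V cells was not read out on the arrays. The 3 members were miR-466 (0.40 in BMMC and 1.73 in P815), miR-467a (0.21 and 1.17) and miR-467b (0.12 and 0.41). Of 285 probes listed in both systems, 22.8% were higher in both. miR-669a and miR-669b were lower in both by at most 0.21, as were 26.7% of the 285 by any amount, and 4 probes had opposite signs, as did 46.7% of the 285. In BMMC 7 of the 9 values lay within the SD of virus and worm probes (0.31), and those of miR-297 and miR-466 passed it. In the authors' processed values, and without scaling, miR-466, miR-467a and miR-467b were lower with SCF, so their shared direction does not hold there.

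The only star probe of these families on the array, miR-467*, was not listed on any array. It read 412.75, 278.0, 233.0 and 235.75 in BMMC without and with SCF and P815 without and with imatinib, or 1.0 to 1.40 times the median mismatch probe. The strand it names was thus near background on each array. miR-467a and miR-467b read 17.6 to 36.9 times that median. Beside the family, another imprinted cluster with probes on the array, Dlk1-Dio3, had 12 of 46 miRNAs listed in P815. Of these 0 were lower and 2 higher by 2-fold with imatinib, with a median of 0.22. The stem cell cluster of miR-290 to miR-295 had 5 of 10 listed, with 0 lower and 2 higher and a median of 0.93. Of these lists 6 of 46 and 0 of 10 miRNAs were listed on all 4 arrays.

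The miRNAs whose profile over the 4 arrays was nearest to the mean of the 8 mouse-named members were found among 254 others by Euclidean distance of centred log2 values. They were miR-678 (0.09), miR-206 (0.13), miR-136 (0.15), miR-202 (0.15) and miR-592 (0.16), against a median distance of 1.09 over the 254. Single members lay 0.26 to 1.15 from their own mean, with miR-466 the farthest. Each of the 5 was higher in untreated P815 than in SCF-treated BMMC, by 1.80-fold to 2.11-fold, and lower with imatinib, by 1.42-fold to 1.64-fold. These directions follow from the choice, which used the same 4 arrays, and are no separate result. miR-136 was listed on 3 arrays and the other four on 4.

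**Figure D4:**
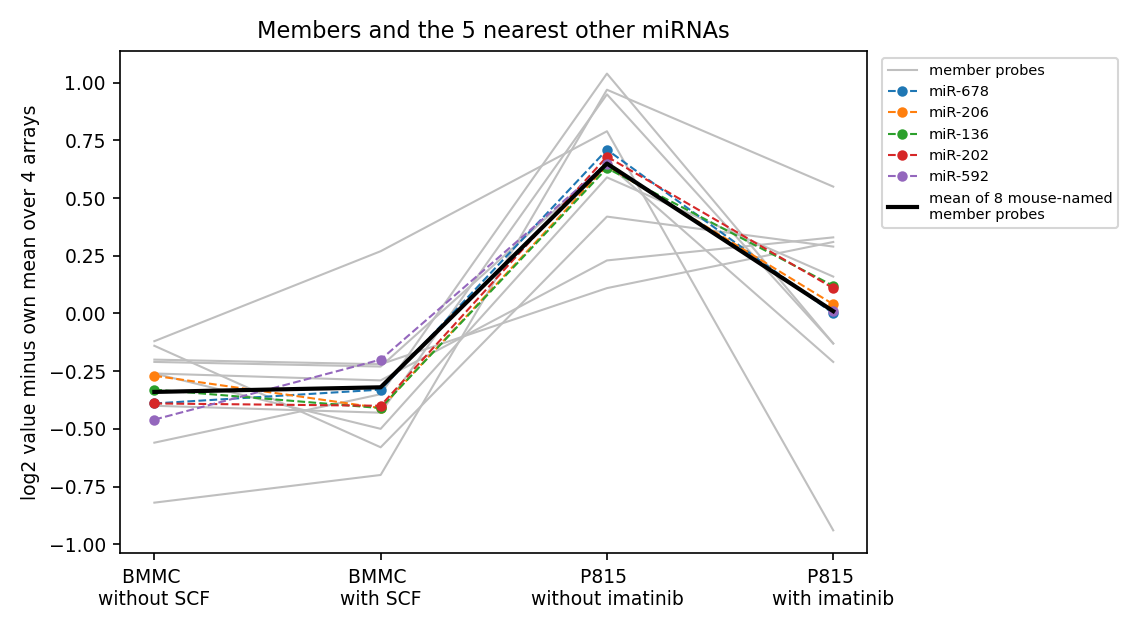
Log2 value of each member probe minus its own mean over the 4 arrays (grey), the mean of the 8 mouse-named members (black) and the 5 nearest other miRNAs (dashed). The mean and all 5, which were chosen for their likeness to it, are highest in P815 without imatinib. miR-466 alone among the members is lowest in P815 with imatinib.

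Of these 5, miR-206 and miR-592 have a mature arm with 5 UG dinucleotides, shown here because they resemble the repeats of the family. The array names give no arm, so which arm each probe targets is not given.
miR-206-3p (chr1:20679055-20679076, + strand): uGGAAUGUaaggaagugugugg
miR-592-5p (chr6:27936711-27936733, - strand): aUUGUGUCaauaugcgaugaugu
miR-574, with a UG-rich and a CA-rich arm, read 6221.5 without and 4028.75 with imatinib in P815, and 5571.25 in BMMC with SCF. It was 2.42-fold lower with imatinib and 4.16-fold higher in untreated P815 than in SCF-treated BMMC, the same directions as miR-467a.
miR-574-5p (chr5:64970328-64970350, + strand): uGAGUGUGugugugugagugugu
miR-574-3p (chr5:64970364-64970385, + strand): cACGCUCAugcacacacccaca
Its mismatch probe went the other way in both comparisons, at 0.55 and -0.19. Of the 5 nearest miRNAs, 4 have a mismatch probe, and in untreated P815 over SCF-treated BMMC these were higher too: by 1.15 for miR-206 (matched probe 1.06), 1.13 for miR-592 (0.85), 0.69 for miR-136 (1.04) and 0.51 for miR-202 (1.08). With imatinib the mismatch probes of miR-202 and miR-592 lay at -0.60 and -0.38 and those of miR-136 and miR-206 at 0.26 and 0.17. Of 8 non-member miRNAs with a UG-rich candidate arm, 6 were listed in P815, with a median of -0.62 with imatinib and 1 at least 2-fold lower. Of the 14 whose 1 matched sequence was CA-rich, 8 were listed, with a median of -0.34 and 2 at least 2-fold lower. The lowest of these 8 was miR-568 at -2.20, below every member, and its mismatch probe was lower too, at -1.90. In untreated P815 over SCF-treated BMMC miR-568 was the highest of its group at 1.06, with its mismatch probe at 1.26. Unlike that of miR-574, the miR-568 mismatch probe thus went the same way as its matched probe in both comparisons. Of 55 others, where the arm is not known and either candidate was CA-rich, 21 were listed, with a median of -0.22 and 1 at least 2-fold lower. Over all 295 listed probes 5.76% were 2-fold lower with imatinib. In untreated P815 over SCF-treated BMMC, 5 of the UG-rich group were listed, with a median of 1.06. Of them 3 were at least 2-fold higher and 1 was lower (miR-210, -2.88). The CA-rich groups had medians there of 0.16 (1 matched sequence) and -0.41 (either arm). In the latter, of 23 listed, 7 were at least 2-fold lower and 5 higher. Over all 313 listed probes of this pair 25.6% were 2-fold lower and 16.6% higher. miR-574 was the lowest of the UG-rich group with imatinib and the highest in untreated P815 over SCF-treated BMMC, where miR-210 lay farther from 0. Whether shared sequence plays a part in these values was not tested.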

How the data were processed

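The 4 deposited array files give, per the file headers, 1 linear intensity per probe (a mean of foreground medians) and no background. Scanner and array maker are not stated there. Per the labels, total RNA was extracted with Trizol and labelled with Cy3 by RNA ligase. The deposited table of the series holds the authors' processed intensity: set against the arrays, it equalled each intensity minus the array's median mismatch probe, times a factor on the treated arrays (0.834 in BMMC, 0.628 in P815), and was blank under 1.5 times that median (all 802 entries on each array). The labels do not state its steps; it served as an alternative within a cell type.

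Intensities were corrected with normexp (offset 50, limma 3.58.1, R 4.3.3), log2 transformed and quantile normalized over the 4 arrays on the 785 matched miRNA probes. A comparison used the mouse, human or rat probes listed on at least 1 of its 2 arrays, with 2-fold as the call. Groups came from the sample titles, 1 array each, and the number of arrays limits the precision, so no p-value was computed. The normalization was tested on simulated data, in which equal numbers of probes were raised and lowered on 1 array. A difference between cell types in which more probes fell than rose was not simulated. A named miRNA outside the families was represented by its mouse-named probe, otherwise the human-named or rat-named one. Every member was named, with their star and mismatch probes, the 5 miRNAs nearest in profile, and examples of miRNAs with at least 5 UG, or at least 5 CA or AC, dinucleotides. A name without an arm that matched both mature arms was matched to neither. Gene names came from GRCm38.p6, for names and order only. Members and lists were chosen with earlier results of these data known. Alternatives varied scaling, background, source of values, detection and probes. Those that vary only detection or probes leave a single probe's value unchanged. Those that differ only in centring give the same gap between probes and the same distance between medians. Counts of alternatives are therefore not counts of independent checks.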

Additional observations from a re-analysis of the deposited data

Results flagged for a closer look

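By the intended KIT state, 4 probes had opposite signs in the 2 systems, each with 1 array a group, and the difference between systems was not tested. Over the 285 probes listed in both systems 46.7% had opposite signs and 28.1% were, like these 4, lower in BMMC and higher in P815. The P815 value (without over with imatinib) exceeded the BMMC value (with over without SCF) by 0.57 on the log2 scale for miR-297 (0.13 against -0.44), by 0.67 for the rat-named miR-297 probe (0.43 against -0.24), by 0.88 for miR-297b (0.86 against -0.02) and by 1.11 for miR-669c (1.08 against -0.03). The BMMC values of miR-297b and miR-669c were near 0, so their signs there carry little weight, and that of miR-669c turned positive with median centring and cyclic loess. In P815 the sign of miR-297 was kept in 7 of 12 alternatives and that of the rat-named probe in 8 of 10. These counts include alternatives that leave a single probe's value unchanged.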

How the results depend on the processing

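No paired analysis was possible because each group has 1 array. With no replicates, a value counted as moved when it shifted by more than 1 SD over virus and worm probes in the same comparison. Without scaling between arrays the members' median went to -0.54 with SCF, to -0.28 for P815 without imatinib against BMMC with SCF, where it reversed, and to -0.70 for P815 with imatinib against BMMC without SCF. The median of all listed probes moved with it, to -0.63, -1.14 and -1.26. In the second of these comparisons miR-297 (-0.23), miR-467a (-0.28), miR-467b (-0.01), miR-669c (-0.28) and the rat-named miR-297 probe (-0.12) reversed, as did miR-467b (-0.70) in the third. In the same setting 0 members were 2-fold lower with imatinib, 0 were 2-fold higher in either P815 comparison, and 4 were 2-fold lower in the third. In the authors' processed values the SCF median was -0.84 with 3 members 2-fold lower, where that of all listed probes was -0.95.

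The count of 3 members 2-fold lower with imatinib became 0 with median centring. It was 2 with 75th percentile scaling and with quantile normalization within each cell type. With cyclic loess, and with the median mismatch subtracted, it was 4. The count of 5 members 2-fold higher in untreated P815 than in SCF-treated BMMC became 2 with 75th percentile scaling, 3 with cyclic loess, 3 without background correction and 0 with median centring. For P815 with imatinib against BMMC without SCF, the 1 higher member became 0 with 75th percentile scaling and with median centring, and 1 member, miR-466, was 2-fold lower with cyclic loess and with the median mismatch subtracted.

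Subtracting each probe's own mismatch left only miR-297 and miR-297b. Their median was -2.39 with SCF, also relative to all probes (-2.39), with 2 members 2-fold lower, and 2.79 for P815 without imatinib against BMMC with SCF (2.85 relative to all probes), with 2 members 2-fold higher. It gave 0 members 2-fold lower with imatinib and 0 higher in the third pair. These values rest on small remainders, 127.75 and 10.25 in BMMC with SCF, the second of which was set at the floor of 16. The remaining alternatives kept these medians and counts within the limits above. The miR-297b readings, 1.84 to 2.59 times the median mismatch probe, leave little signal over background.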
